A study of Mus musculus with 6 samples.

Results

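Heat shock proteins and their J-domain partners were followed in γδ thymocytes from mice labelled as lacking NFATc1 and from their controls. The genes were taken by name from the gene tables: protein-coding genes named as HSP families (Hspa to Hsph, Hsp followed by a digit), J-domain proteins (Dnaja, Dnajb, Dnajc), BAG cochaperones, heat shock factors and CCT chaperonin subunits. They were 94 of the 41195 genes in the tables, of which 89 had at least 1 read. After the filter on low counts, 78 of the 94 were among the 13185 genes tested. Cct6a matches by name but is listed with another biotype and was left out, with 0.09 as its log2 fold change, and Tcp1, another CCT subunit, is not matched by name.

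The study isolated γδ thymocytes with a magnetic kit for γδ T cells and measured poly(A) RNA in 6 libraries. In Rag1Cre-Nfatc1fl/fl mice (3 libraries) a Cre recombinase expressed from the Rag1 locus, active from early thymocyte stages onward, removes the loxP-flanked exon 3 of both Nfatc1 alleles. The Nfatc1fl/fl controls (3 libraries) carry the same floxed alleles without Cre. All mice had the C57/B6 background and were a few weeks old, and the labels do not say whether each library came from a separate animal, so that p-values measure the spread between these libraries, which may be technical.

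HSP70 proteins bind unfolded stretches of other proteins in cycles of ATP hydrolysis. J-domain proteins deliver the client and start hydrolysis, BAG and HSP110 proteins release the nucleotide, HSP90 finishes many kinases and receptors, and the ring-shaped chaperonins enclose their clients. Some members are made in every cell, whereas others are switched on by stress: heat shock factor HSF1 drives the cytosolic heat-inducible genes, and the unfolded protein response drives those of the endoplasmic reticulum (ER). The heat-inducible set held 10 genes, the ER-stress-inducible set 6, and the other 78 genes were treated as constitutive or as other members. Both sets were fixed lists of genes, and induction was not measured in these cells. Dnaja4, Hspd1 and Hspe1 were placed outside the heat-inducible set, and the counts for that set depend on this placement.

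Libraries held 20734771 to 22638531 reads in genes. The chaperone genes took 1.24% to 1.47% of the reads in Rag1Cre-Nfatc1fl/fl libraries and 1.31% to 1.41% in Nfatc1fl/fl libraries. Levels are given as CPM, read counts put on a common library size with the trimmed mean of M values (TMM). Nfatc1 itself had 310 to 437 CPM in Rag1Cre-Nfatc1fl/fl libraries, above the 197 to 208 CPM of Nfatc1fl/fl libraries; a count over the whole gene does not isolate the deleted exon, so it does not check the genotype labels. All 6 T and γδ cell markers were detected, with Trdc, the constant part of the T cell receptor δ chain, at 93.3 to 127 CPM in Rag1Cre-Nfatc1fl/fl libraries and 194 to 206 CPM in controls. Rag1Cre-Nfatc1fl/fl replicate 3 stood apart. The 7 myeloid and stromal markers summed to 156 CPM there against 40.4 and 57.5 CPM in replicates 2 and 1 and 30.8 to 69.9 CPM in controls. Of the 7, 4 were highest in replicate 3: C1qa (80.2 CPM), Csf1r (31.5 CPM), Adgre1 (24.5 CPM) and Itgax (4.07 CPM). Lyz2, Epcam and Col1a1 were not, with 5.81, 8.13 and 1.85 CPM there. The 6 double-positive thymocyte markers summed to 616 CPM in replicate 3 against 207 and 385 CPM in replicates 2 and 1, and 430 to 438 CPM in controls. Replicates 1 and 2 thus lay below the controls in the double-positive sum. Dntt, 1 of those 6 and the largest part of the control sums, ran otherwise, with 170, 115 and 231 CPM in Rag1Cre-Nfatc1fl/fl libraries against 247, 269 and 289 CPM in controls. Cd8a had 69.3, 31.4 and 136 CPM against 55.1, 50.8 and 45.2 CPM in controls, so that replicate 1 lay above the controls. Cd8b1 and Rag2 ran as Cd8a did, and Rag1 and Ptcra in replicate 1 lay within the control range. The 4 erythroid markers summed to 5.78 to 37.5 CPM in Rag1Cre-Nfatc1fl/fl libraries, highest in replicate 3, and 2.99 to 19.8 CPM in controls. Of the B cell markers, Cd79b had 13.8 to 18.5 CPM in Rag1Cre-Nfatc1fl/fl libraries and 24.3 to 27.7 CPM in controls, while Ms4a1 had at most 0.158 CPM in Rag1Cre-Nfatc1fl/fl libraries and was at 0 in all controls. Of these markers Trdc (log2 fold change -0.80, edgeR adjusted p = 0.00352), Cd79b (-0.72, adjusted p = 0.00654) and Epcam (-1.20, adjusted p = 0.000336) were called lower in Rag1Cre-Nfatc1fl/fl libraries and 0 were called higher. Over all tested genes 3.51% were called lower and 6.47% higher. The Trdc call was lost without Rag1Cre-Nfatc1fl/fl replicate 2 (0.0117) or Nfatc1fl/fl replicate 1 (0.0185), 2 (0.0197) or 3 (0.0231), and that of Cd79b without Rag1Cre-Nfatc1fl/fl replicate 1 (0.0207) or 2 (0.0221) or Nfatc1fl/fl replicate 1 (0.0357), 2 (0.0352) or 3 (0.0221). The part of these cells in the chaperone values was not tested. Results that rest on replicate 3 are given with and without it.

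Promoter sequences were examined for the element that gives the heat-inducible set its name. RefSeq windows (build GRCm38.p6, 250 bases before to 50 after a gene's start) were on hand for 76 of the 94 genes. They were searched for the inverted repeats GAANNTTC and TTCNNGAA, each called a unit here. Such a unit is a pair of GAA blocks in opposite orientation. The heat shock element that heat shock factors bind is a row of such blocks, so 1 unit alone need not be a full element. Each unit reads the same on both strands, and neighbouring units can overlap. A unit was present for 8 of 9 heat-inducible genes and for 21 of all 76 chaperone genes (27.6%), against 17.0% of the 27025 genes in the promoter table. Windows of 4 genes are shown, with the units in capitals. Hsf4 had no window in the table, and the Dnajc6 windows held no unit. The Hspa1a and Hspa1b windows are shown because the 2 genes are near copies: 296 of 300 bases were identical. The Dnaja4 window belongs to a gene that passed the test, and the Hspe1 window, which shares 285 bases with a window of its neighbour Hspd1, to the mitochondrial chaperonin pair.
Hspa1a, chr17:34972107-34972406, minus strand: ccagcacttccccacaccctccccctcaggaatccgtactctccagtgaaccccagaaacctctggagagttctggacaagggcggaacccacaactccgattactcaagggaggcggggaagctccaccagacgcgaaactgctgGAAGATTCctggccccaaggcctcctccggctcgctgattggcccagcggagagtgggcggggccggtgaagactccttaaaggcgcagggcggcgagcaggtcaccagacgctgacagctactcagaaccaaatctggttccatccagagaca
Hspa1b, chr17:34959189-34959488, minus strand: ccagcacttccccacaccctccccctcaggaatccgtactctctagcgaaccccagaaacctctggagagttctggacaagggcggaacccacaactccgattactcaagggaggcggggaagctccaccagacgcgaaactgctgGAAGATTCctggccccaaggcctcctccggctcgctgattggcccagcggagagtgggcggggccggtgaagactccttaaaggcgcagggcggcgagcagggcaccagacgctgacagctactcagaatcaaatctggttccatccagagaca
Dnaja4, chr9:54699309-54699608, plus strand: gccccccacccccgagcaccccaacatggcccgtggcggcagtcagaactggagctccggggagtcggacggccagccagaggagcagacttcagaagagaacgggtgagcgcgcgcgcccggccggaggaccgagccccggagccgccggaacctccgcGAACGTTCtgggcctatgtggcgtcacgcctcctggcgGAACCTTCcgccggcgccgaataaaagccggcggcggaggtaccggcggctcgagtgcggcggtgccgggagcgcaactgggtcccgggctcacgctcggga
Hspe1, chr1:55087898-55088197, plus strand: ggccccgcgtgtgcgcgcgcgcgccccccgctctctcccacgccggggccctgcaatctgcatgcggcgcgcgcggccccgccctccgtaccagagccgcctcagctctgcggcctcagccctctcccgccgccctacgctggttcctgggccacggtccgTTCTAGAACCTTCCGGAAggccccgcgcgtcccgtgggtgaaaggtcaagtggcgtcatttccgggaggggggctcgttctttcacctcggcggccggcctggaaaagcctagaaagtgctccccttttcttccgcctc
In both Hspa1 windows the unit began 104 bases before the start. Dnaja4 had 2 units, 90 and 52 bases before the start, and Hspe1 had 3 overlapping units, beginning 89, 84 and 79 bases before it. A match is a description of the letters in the window and does not show binding. Windows of the ER-stress-inducible set held a unit in 1 of 6 genes, and those of the constitutive HSP70, HSP90 and HSP110 set in 0 of 8. A unit was present for 3 of 7 CCT genes, 2 of 4 other small heat shock proteins, 2 of 7 mitochondrial chaperones, 2 of 11 J-domain genes of the A and B classes, 2 of 14 of the C class, 1 of 7 BAG and HSF genes and 0 of 3 genes matched by name only.

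Few chaperone genes differed between the genotypes. Calls followed the cutoffs of the study: an adjusted p below 0.01 (edgeR quasi-likelihood fit, Benjamini-Hochberg over every gene that entered it) together with a log2 fold change beyond 0.5 in either direction. Of the 78 tested members 2 were called higher in Rag1Cre-Nfatc1fl/fl libraries (Hsf4 and Dnaja4) and 1 lower (Dnajc6), or 3.85% of them, where 9.98% of all tested genes were called (6.47% higher, 3.51% lower). DESeq2 called 3 higher and 1 lower against 15.3% of all genes, adding Dnajc4, and limma-voom called 2 higher and 1 lower against 10.0% of all genes. The log2 fold changes of the members had a median of 0.06, with 44 of 78 above 0, beside a median of -0.0069 over all tested genes, and 66 of 78 were under 0.5 in size. By rank, 17 members had all 3 Rag1Cre-Nfatc1fl/fl libraries above all controls and 12 had them all below, where 23.3% and 23.4% of all tested genes did so. At an adjusted p under 0.05 with no fold limit, 5 members were higher and 4 lower, against 13.2% and 10.1% of all tested genes.

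**Figure D1:**
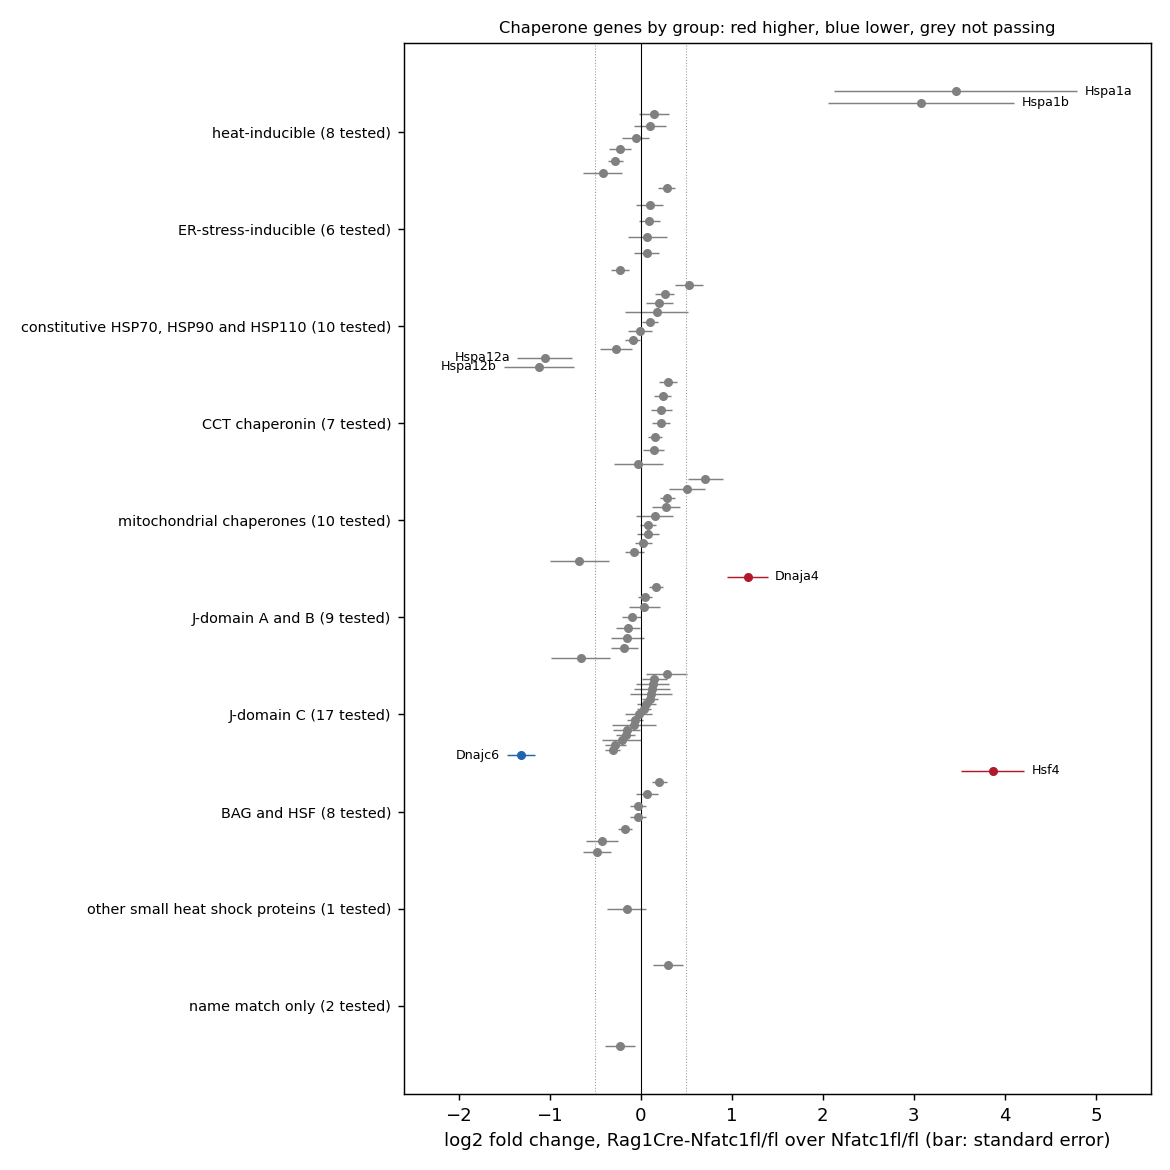
Log2 fold change (x axis, Rag1Cre-Nfatc1fl/fl over Nfatc1fl/fl) of the 78 tested chaperone genes by group (y axis), with bars for the standard error and dotted lines at 0.5 on either side of 0. Most points lie between the dotted lines, Hsf4 and Dnaja4 (red) and Dnajc6 (blue) passed the test, and Hspa1a and Hspa1b lie far to the right with wide bars.

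Hsf4, a heat shock factor best known for its role in the lens of the eye, had the largest fold change among the tested members. The gene (ENSMUSG00000033249, GRCm38 chr8:105269801-105275845, plus strand) had 8.63, 10.7 and 8.45 CPM in Rag1Cre-Nfatc1fl/fl libraries, against 0.560, 1.01 and 0.312 CPM in Nfatc1fl/fl libraries. The groups were far apart, and the lowest Rag1Cre-Nfatc1fl/fl library stood well above the highest control. In reads these were 188, 234 and 160 against 13, 23 and 7, and most of them crossed an exon-exon junction (158, 191 and 127 against 11, 16 and 7). The log2 fold change was 3.87 (SE 0.345, edgeR adjusted p = 0.000305), a 14.6-fold higher level. The call was kept when any 1 library was left out, with log2 fold changes of 3.55 to 4.39. In these bulk libraries more cells that express a gene and more RNA per cell cannot be told apart.

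The other heat shock factors had no such pattern. Hsf1, the factor that drives the heat-inducible genes, averaged 32.0 ± 3.04 CPM in Rag1Cre-Nfatc1fl/fl libraries and 30.5 ± 3.95 CPM in controls (SD, n = 3 each), with overlapping groups. Hsf2 averaged 9.53 ± 2.03 CPM in Rag1Cre-Nfatc1fl/fl libraries and 12.8 ± 0.956 CPM in controls and did not pass the test (log2 fold change -0.42, edgeR adjusted p = 0.117). Hsf3 and Hsf5 had too few reads to be tested.

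Dnaja4, a cytosolic J-domain partner of HSP70 (ENSMUSG00000032285, GRCm38 chr9:54698873-54716315, plus strand), was the other gene called higher. It had 7.99, 5.92 and 7.29 CPM in Rag1Cre-Nfatc1fl/fl libraries, against 2.97, 3.96 and 2.45 CPM in controls. All 3 Rag1Cre-Nfatc1fl/fl libraries lay above all controls. The log2 fold change was 1.17 (SE 0.223, edgeR adjusted p = 0.00837). The call was lost when any library but Rag1Cre-Nfatc1fl/fl replicate 3 was left out: the adjusted p was 0.0260 without Rag1Cre-Nfatc1fl/fl replicate 1, 0.0162 without replicate 2, and 0.0421, 0.0119 and 0.0361 without Nfatc1fl/fl replicate 1, 2 or 3, with log2 fold changes of 1.03 to 1.38. Calls over all genes also fell in these fits, from 1316 to 1002, 629, 488, 541 and 488. The Dnaja4 call was also lost when only library size was used for scaling (adjusted p = 0.0131) and with TPM at a pseudocount of 1 (0.0351) or 0.1 (0.0457). Of its reads 68.9% were unique, and it overlaps Wdr61 on the other strand, from which reads could not be separated without strand information.

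Dnajc6, which encodes auxilin, the J-domain protein that brings HSP70 to clathrin-coated vesicles to strip their coat (ENSMUSG00000028528, GRCm38 chr4:101496648-101642799, plus strand), was the gene called lower. It had 14.5, 11.2 and 11.5 CPM in Rag1Cre-Nfatc1fl/fl libraries, against 31.0, 26.3 and 35.4 CPM in controls. Every Rag1Cre-Nfatc1fl/fl library was below every control. The log2 fold change was -1.31 (SE 0.150, edgeR adjusted p = 0.000915), and the call was kept without any 1 library. It was lost in limma fits on log2 TPM, a level scaled for exon length,, with an adjusted p of 0.0112 with 1 added and 0.0134 with 0.1 added. Intron reads, counted apart from the exons, ran the same way (17, 12 and 17 in Rag1Cre-Nfatc1fl/fl libraries against 55, 31 and 37 in controls), with a log2 fold change of -1.18 and an edgeR adjusted p of 0.0230.

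**Figure D2:**
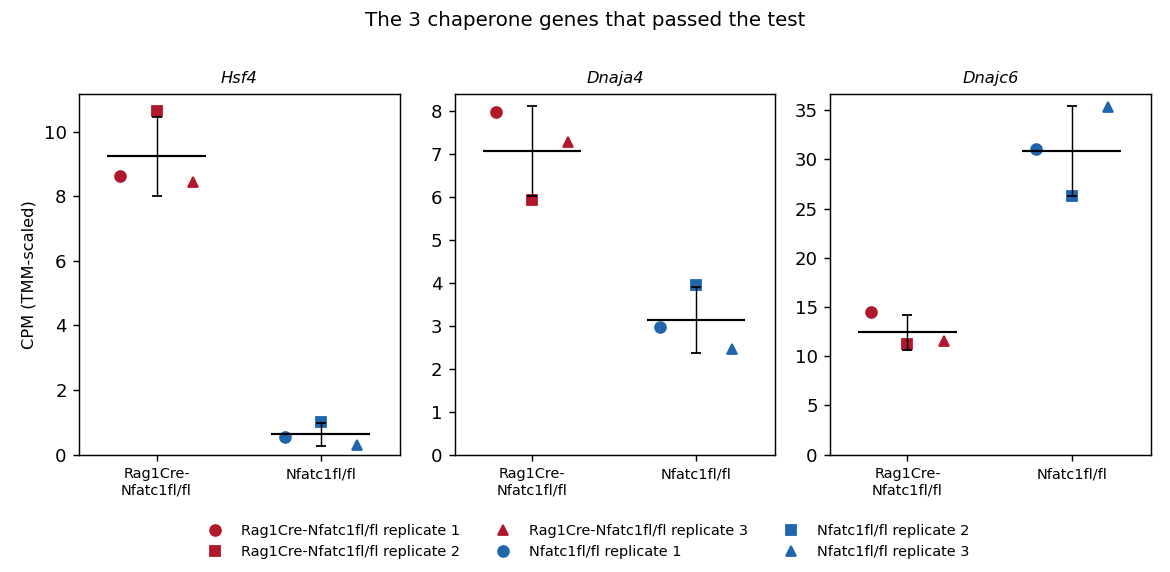
CPM (y axis, starting at 0) of the 3 chaperone genes that passed the test in each library, with Rag1Cre-Nfatc1fl/fl at the left and Nfatc1fl/fl at the right of each panel; lines and bars are the mean and SD of 3 libraries. The groups do not overlap in any panel, and Hsf4 lies between 8.45 and 10.7 CPM in Rag1Cre-Nfatc1fl/fl libraries and at 1.01 CPM or lower in controls.

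Among the heat-inducible genes, the stress-induced HSP70 pair Hspa1a and Hspa1b varied most. Hspa1a (ENSMUSG00000091971) had 17.4, 46.1 and 0 CPM in Rag1Cre-Nfatc1fl/fl libraries, against 2.37, 3.03 and 0.356 CPM in controls. Hspa1b (ENSMUSG00000090877) had 20.9, 48.4 and 2.32 CPM in Rag1Cre-Nfatc1fl/fl libraries, against 2.97, 5.10 and 0.401 CPM in controls. Replicates 1 and 2 of Rag1Cre-Nfatc1fl/fl stood above every control for both genes, whereas replicate 3 lay within or below the control range. Neither gene passed the test, with log2 fold changes of 3.46 (SE 1.33, edgeR adjusted p = 0.0987) for Hspa1a and 3.08 (SE 1.03, edgeR adjusted p = 0.0650) for Hspa1b. Without Rag1Cre-Nfatc1fl/fl replicate 3 both were called higher, at 4.05 (edgeR adjusted p = 0.000577) and 3.62 (edgeR adjusted p = 0.00123), which makes 4 members higher and 1 lower, where 8.42% and 4.95% of all tested genes were called higher and lower in that fit.

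Because many reads fit both copies (53.8% of the Hspa1a reads and 60.5% of the Hspa1b reads were unique), the pair was also summed, a choice made after seeing the data. The sum was 38.3, 94.5 and 2.32 CPM in Rag1Cre-Nfatc1fl/fl libraries, against 5.34, 8.14 and 0.757 CPM in controls. It spanned a wide range in both genotypes, and replicate 3 was the lowest library of each. The log2 fold change of the sum was 3.25 (SE 1.13, edgeR adjusted p = 0.0738), and 3.81 (edgeR adjusted p = 0.000898) without Rag1Cre-Nfatc1fl/fl replicate 3. On a log2 scale of CPM with 0.5 added, the SD between the 3 Rag1Cre-Nfatc1fl/fl libraries was 3.45 for Hspa1a and 2.12 for Hspa1b, and between the controls 1.10 and 1.37, where the median gene with at least 1 CPM had 0.190 and 0.0911.

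The 2 copies also parted in 1 library. Unique reads of the pair fell on Hspa1a in 43.8% and 45.1% of cases in Rag1Cre-Nfatc1fl/fl replicates 1 and 2, and in 37.3% to 44.4% in controls. In Rag1Cre-Nfatc1fl/fl replicate 3 it was 0 of 29 unique reads, which allows a share of up to 10.3% (exact 95% interval 0 to 11.9%), for counting error only. Reads are not independent molecules, since no molecular identifiers were used.

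Other signs of recent stress were read beside the pair. Of 13 tested immediate early genes, which cell isolation can induce, 5 were highest in Rag1Cre-Nfatc1fl/fl replicate 2 (Fos, Fosb, Jun, Egr1 and Zfp36). Another 5 (Junb, Jund, Ier2, Ier3 and Dusp1) were highest in Rag1Cre-Nfatc1fl/fl replicate 3, and 3 (Btg2, Nr4a1 and Klf6) in Nfatc1fl/fl replicate 3. Of all 13185 tested genes, 2155, 4012 and 2209 were highest in these 3 libraries. Fos had 7.94, 14.5 and 5.81 CPM in Rag1Cre-Nfatc1fl/fl libraries, against 5.77, 5.85 and 6.32 CPM in controls. Of the 13, 6 were higher and 0 lower at an unadjusted p under 0.05 in edgeR, where 20.1% and 17.5% of all tested genes were. All 3 Rag1Cre-Nfatc1fl/fl libraries lay above the controls in 6 and below in 0, where 23.3% and 23.4% of all tested genes did so. The median log2 fold change was 0.45, and 0.37 without Rag1Cre-Nfatc1fl/fl replicate 3. Of that list 2 genes were called higher, where 6.47% of all tested genes were (Ier3 at a log2 fold change of 2.64, edgeR adjusted p = 0.00208, and Zfp36 at 0.55, adjusted p = 0.00874) and 0 lower. Their part in the Hspa1 values was not tested. Both calls were lost in some of the other fits: that of Ier3 without any 1 of the controls (adjusted p 0.0112 to 0.0140), and that of Zfp36 without Rag1Cre-Nfatc1fl/fl replicate 2 (0.0367) or Nfatc1fl/fl replicate 1 (0.0479), 2 (0.0412) or 3 (0.0296), with library size only (0.0205) and with TPM at a pseudocount of 1 (0.0831) or 0.1 (0.0869). Without a control the calls over all genes also fell, from 1316 to 488, 541 and 488.

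The other 6 tested heat-inducible genes were not called either. Hsp90aa1, the inducible cytosolic HSP90, had 638, 651 and 447 CPM in Rag1Cre-Nfatc1fl/fl libraries, against 591, 644 and 568 CPM in controls. Hsph1, the inducible HSP110, had 88.1, 91.9 and 65.8 CPM in Rag1Cre-Nfatc1fl/fl libraries, against 70.0, 94.6 and 64.9 CPM in controls. For both genes the groups overlapped, and for Hsp90aa1 the lowest of the 6 was Rag1Cre-Nfatc1fl/fl replicate 3.

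No J-domain or BAG member of the set was called. Dnajb1, the main heat-inducible J-domain protein, had 119, 121 and 151 CPM in Rag1Cre-Nfatc1fl/fl libraries, against 143, 150 and 165 CPM in controls. Dnajb4, its relative, had 5.32, 3.69 and 6.55 CPM in Rag1Cre-Nfatc1fl/fl libraries, against 6.46, 7.12 and 7.17 CPM in controls. The groups overlapped for both, with edgeR adjusted p of 0.193 for Dnajb1 and 0.198 for Dnajb4. Dnaja1, an abundant J-domain protein, had 266, 246 and 245 CPM in Rag1Cre-Nfatc1fl/fl libraries, against 301, 324 and 293 CPM in controls, and all 3 Rag1Cre-Nfatc1fl/fl libraries lay below the controls. The difference, -0.28 on the log2 scale (SE 0.0840, edgeR adjusted p = 0.0476), missed both the adjusted p cutoff of 0.01 and the fold limit. Bag3, which takes HSP70 clients to autophagy, had 4.73, 5.37 and 4.28 CPM in Rag1Cre-Nfatc1fl/fl libraries, against 4.52, 4.18 and 4.27 CPM in controls, with overlapping groups. Hspb1, a small heat shock protein, had 0.275, 0.546 and 0.581 CPM in Rag1Cre-Nfatc1fl/fl libraries, against 0.0861, 0.0880 and 0.0445 CPM in controls. These values did not overlap but rest on few reads, and neither Hspb1 nor Hspb8, with at most 0.132 CPM, was tested.

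In this set 0 of 8 tested genes were called by edgeR, DESeq2 or limma-voom; 2 were higher and 1 lower at an unadjusted p under 0.05, where 37.6% of all tested genes passed that mark. The median log2 fold change of the 8 was 0.02, and 0.17 without Rag1Cre-Nfatc1fl/fl replicate 3. Over all tested genes the medians were -0.0069 and 0.0041.

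**Figure D3:**
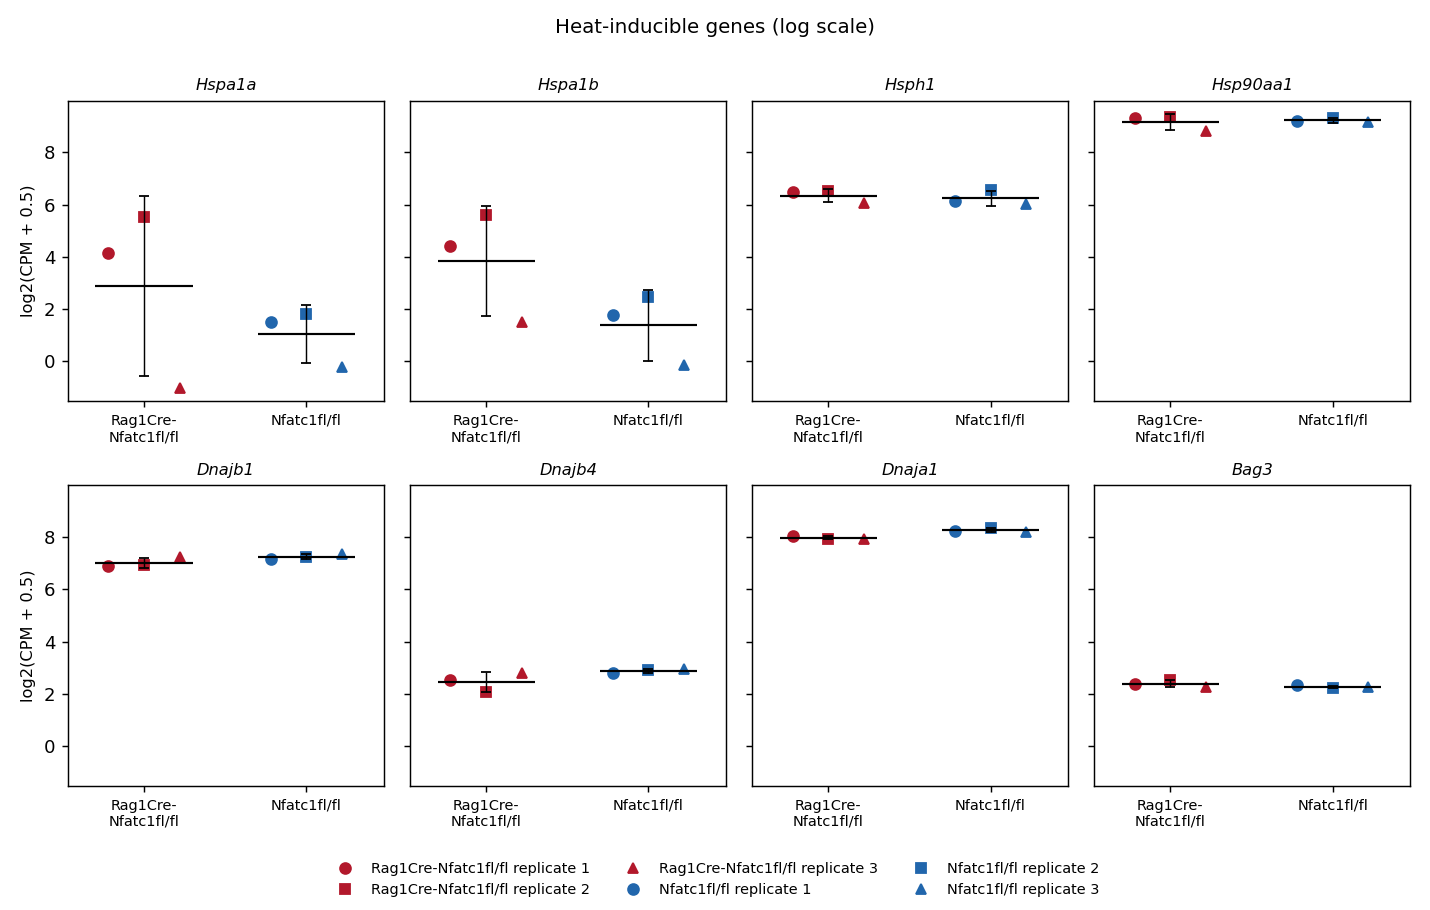
Level of the 8 tested heat-inducible genes in each library as log2(CPM + 0.5) on a shared y axis, with Rag1Cre-Nfatc1fl/fl at the left and Nfatc1fl/fl at the right; lines and bars are the mean and SD of 3 libraries. Hspa1a and Hspa1b spread over several log2 units within a genotype, with replicate 3 (triangles) lowest in each, while the other 6 genes stay in a narrow band.

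Reads in introns gave a further view of the inducible genes. Dnajb1 had 59, 139 and 14 intron reads in Rag1Cre-Nfatc1fl/fl libraries, against 40, 32 and 12 in controls. Hsp90aa1 had 120, 163 and 22 intron reads in Rag1Cre-Nfatc1fl/fl libraries, against 75, 57 and 53 in controls. In both genes Rag1Cre-Nfatc1fl/fl replicate 2 held the most intron reads, the library in which the Hspa1 pair was also highest, while the total CPM of both genes overlapped between the groups. This order was not particular to the heat-inducible set. Outside it, Hsp90ab1 had 138, 227 and 61 intron reads against 89, 79 and 70 in controls, and Hspe1 had 23, 41 and 6 against 11, 21 and 5. Other members, such as Bag6 with 15, 8 and 12 against 18, 27 and 18, did not share it. In a fit on intron reads, chosen after seeing the data, 38 members could be tested and 1 was called higher and 0 lower, where 2.76% of the genes in that fit were called higher; it was Hspbp1, an exchange factor of HSP70, whose intron reads differed by 1.47 on the log2 scale (SE 0.261, edgeR adjusted p = 0.00112). Its intron reads were 76, 64 and 99 in Rag1Cre-Nfatc1fl/fl libraries, against 42, 25 and 35 in controls. All 3 Rag1Cre-Nfatc1fl/fl values were above the controls. Its total level was 68.8, 80.7 and 107 CPM in Rag1Cre-Nfatc1fl/fl libraries, against 59.1, 57.5 and 61.1 CPM in controls (log2 fold change 0.53, edgeR adjusted p = 0.0428), and it was not called there.

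No ER-stress-inducible chaperone passed the test. Hspa5, the ER HSP70 known as BiP, had 727, 696 and 589 CPM in Rag1Cre-Nfatc1fl/fl libraries, against 639, 689 and 555 CPM in controls. Hsp90b1, the ER HSP90, had 580, 586 and 332 CPM in Rag1Cre-Nfatc1fl/fl libraries, against 474, 537 and 416 CPM in controls. The groups overlapped for both, and Hsp90b1 was lowest in Rag1Cre-Nfatc1fl/fl replicate 3.

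The J-domain partners of BiP were not called either. Dnajb11, which binds unfolded clients in the ER, had 138, 144 and 127 CPM in Rag1Cre-Nfatc1fl/fl libraries, against 110, 121 and 104 CPM in controls. Dnajc10, an ER disulfide reductase, had 116, 98.3 and 96.5 CPM in Rag1Cre-Nfatc1fl/fl libraries, against 117, 122 and 126 CPM in controls. The groups did not overlap for either gene, with Dnajb11 above and Dnajc10 below, at log2 fold changes of 0.29 (edgeR adjusted p = 0.0618) and -0.23 (edgeR adjusted p = 0.127). Dnajc3, which also limits the kinase PERK, had 227, 230 and 163 CPM in Rag1Cre-Nfatc1fl/fl libraries, against 199, 205 and 187 CPM in controls. Dnajb9, which helps to restrain the stress sensor IRE1, had 22.2, 21.9 and 30.7 CPM in Rag1Cre-Nfatc1fl/fl libraries, against 21.2, 24.8 and 23.9 CPM in controls. Both overlapped between the groups. None of the 6 was called by edgeR, DESeq2 or limma-voom. At an unadjusted p under 0.05, 1 was higher and 1 lower, where 20.1% and 17.5% of all tested genes were.

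Of 20 other genes of the unfolded protein response 0 were called higher and 2 lower, where 6.47% and 3.51% of all tested genes were. At an unadjusted p under 0.05, 4 were higher and 4 lower, where 20.1% and 17.5% of all tested genes were. Calr, an ER lectin chaperone, came nearest to a call in the higher direction, with 1035, 1115 and 1053 CPM in Rag1Cre-Nfatc1fl/fl libraries, against 743, 841 and 733 CPM in controls (log2 fold change 0.47, edgeR adjusted p = 0.0101). Of the 2 called lower, Eif2ak3, which encodes PERK, had 29.7, 26.6 and 21.6 CPM in Rag1Cre-Nfatc1fl/fl libraries, against 38.5, 41.6 and 40.9 CPM in controls (log2 fold change -0.63, edgeR adjusted p = 0.00968), and Edem1, which sorts misfolded glycoproteins for disposal, had 152, 130 and 171 CPM against 225, 228 and 250 CPM in controls (log2 fold change -0.63, edgeR adjusted p = 0.00682). In both genes the groups did not overlap. Ern1, which encodes IRE1, came nearest to a further call lower, with 30.8, 26.1 and 21.9 CPM against 43.0, 37.6 and 46.3 CPM in controls (log2 fold change -0.69, edgeR adjusted p = 0.0113). DESeq2 called 0 of the 20 higher and 3 lower, and limma-voom 0 higher and 2 lower. Of all tested genes they called 15.3% and 10.0% either way. The Eif2ak3 call was lost without Rag1Cre-Nfatc1fl/fl replicate 2 (adjusted p = 0.0334) or Nfatc1fl/fl replicate 1 (0.0348), 2 (0.0480) or 3 (0.0461), with library size only (0.0117), with total exon reads (0.0128) and with TPM at a pseudocount of 1 (0.0620) or 0.1 (0.0685), and that of Edem1 without Rag1Cre-Nfatc1fl/fl replicate 1 (0.0215) or 2 (0.0220) or Nfatc1fl/fl replicate 1 (0.0279), 2 (0.0304) or 3 (0.0386).

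The constitutive cytosolic chaperones were the most abundant members. Hsp90ab1, the constitutive HSP90, had 3279, 3569 and 2419 CPM in Rag1Cre-Nfatc1fl/fl libraries, against 2751, 2716 and 2576 CPM in controls. Hspa8, the constitutive HSP70, had 2606, 2592 and 2884 CPM in Rag1Cre-Nfatc1fl/fl libraries, against 2085, 2448 and 2195 CPM in controls. Hsp90ab1 was highest in Rag1Cre-Nfatc1fl/fl replicates 1 and 2 and lowest of all in replicate 3, whereas Hspa8 was above the controls in all 3 Rag1Cre-Nfatc1fl/fl libraries. Neither was called (log2 fold changes 0.20 and 0.26, edgeR adjusted p = 0.346 and 0.101), and 46.3% of the Hspa8 reads were unique. Of the 10 tested genes of this group 0 were called by edgeR, DESeq2 or limma-voom. At an unadjusted p under 0.05, 2 were higher and 2 lower, where 20.1% and 17.5% of all tested genes were. Hspa12a, a divergent HSP70 named here after its values were seen, had 0.597, 0.501 and 0.739 CPM in Rag1Cre-Nfatc1fl/fl libraries, against 1.33, 1.10 and 1.38 CPM in controls. These values rest on few reads, 13, 11 and 14 against 31, 25 and 31 in controls. The groups did not overlap, and its log2 fold change was -1.05 (SE 0.301, edgeR adjusted p = 0.0394). Of the 10 tested genes 3, Hspa12a among them, had all 3 Rag1Cre-Nfatc1fl/fl libraries below the controls and 2 had them above, where 23.4% and 23.3% of all tested genes did so.

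The CCT chaperonin, which folds actin and tubulin, had most of its subunits at a higher CPM in each Rag1Cre-Nfatc1fl/fl library than in any control, but no subunit was called. Cct2 had 540, 555 and 636 CPM in Rag1Cre-Nfatc1fl/fl libraries, against 461, 484 and 520 CPM in controls. Cct5 had 407, 426 and 494 CPM in Rag1Cre-Nfatc1fl/fl libraries, against 366, 381 and 391 CPM in controls. In both subunits all 3 Rag1Cre-Nfatc1fl/fl libraries were above the controls, and replicate 3 was the highest.

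Over the group, 5 of 7 tested subunits (Cct2, Cct3, Cct5, Cct7 and Cct8) had all 3 Rag1Cre-Nfatc1fl/fl libraries above the controls, where 23.3% of all tested genes did. The median log2 fold change was 0.22, with 6 of 7 above 0, beside -0.0069 over all genes, and the largest was Cct3 at 0.30 (SE 0.0997, edgeR adjusted p = 0.0667). The subunit below 0, at -0.025, averaged only 2.64 CPM in Rag1Cre-Nfatc1fl/fl libraries and 2.68 CPM in controls. Cct6a and Tcp1, outside this count, had log2 fold changes of 0.09 and 0.21 (edgeR adjusted p = 0.415 and 0.153). Both had all 3 Rag1Cre-Nfatc1fl/fl libraries above the controls. Of the 7, 0 were called by edgeR, DESeq2 or limma-voom, and 2 were higher and 0 lower at an unadjusted p under 0.05, where 20.1% and 17.5% of all tested genes were. Rag1Cre-Nfatc1fl/fl replicate 3 was the highest of the 6 libraries in 5 of the 7, where this held for 30.4% of all tested genes, and without it the median was 0.15. Summed over the group the level was 2361, 2412 and 2805 CPM in Rag1Cre-Nfatc1fl/fl libraries, against 2098, 2168 and 2246 CPM in controls. Prefoldin, which hands clients to CCT, had 0 of 6 subunits called by edgeR, DESeq2 or limma-voom and 5 higher at an unadjusted p under 0.05 (20.1% of all tested genes). Rag1Cre-Nfatc1fl/fl replicate 3 was the highest of the 6 libraries in 5 of the 6 subunits, and the median log2 fold change was 0.29 with it and 0.19 without it. Its most abundant subunit by CPM, Pfdn5, had 149, 147 and 221 CPM in Rag1Cre-Nfatc1fl/fl libraries, against 132, 124 and 138 CPM in controls, and Vbp1 had 74.9, 77.6 and 93.3 CPM against 54.6, 58.5 and 62.8 CPM. Neither overlapped between the groups.

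The mitochondrial chaperonin pair was also higher in every Rag1Cre-Nfatc1fl/fl library than in the controls. Hspd1, the HSP60 ring subunit, had 305, 321 and 289 CPM in Rag1Cre-Nfatc1fl/fl libraries, against 243, 258 and 246 CPM in controls. Hspe1, its HSP10 lid, had 161, 174 and 276 CPM in Rag1Cre-Nfatc1fl/fl libraries, against 137, 148 and 143 CPM in controls. Neither gene overlapped between the groups, but Hspe1 rested most on replicate 3. The log2 fold change of Hspd1 was 0.29 (SE 0.0814, edgeR adjusted p = 0.0358) and that of Hspe1 0.51 (SE 0.193, edgeR adjusted p = 0.0943), and neither was called. Without Rag1Cre-Nfatc1fl/fl replicate 3 the log2 fold change of Hspe1 was 0.24 (adjusted p = 0.0147). The 2 genes overlap by 112 bases on opposite strands.

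Hspa9, the mitochondrial HSP70, had 216, 222 and 191 CPM in Rag1Cre-Nfatc1fl/fl libraries, against 199, 197 and 198 CPM in controls, and the groups overlapped. Dnajc4, a J-domain protein named after its values were seen, had 7.57, 9.97 and 9.50 CPM in Rag1Cre-Nfatc1fl/fl libraries, against 6.41, 5.72 and 4.36 CPM in controls. All 3 Rag1Cre-Nfatc1fl/fl libraries were above the controls, and its log2 fold change of 0.71 (SE 0.191) missed the threshold in edgeR (adjusted p = 0.0316) and passed it in DESeq2 (0.72, adjusted p = 0.00749). Of 10 tested mitochondrial members 0 were called by edgeR or limma-voom and 1 by DESeq2. At an unadjusted p under 0.05, 3 were higher and 0 lower, where 20.1% and 17.5% of all tested genes were.

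**Figure D4:**
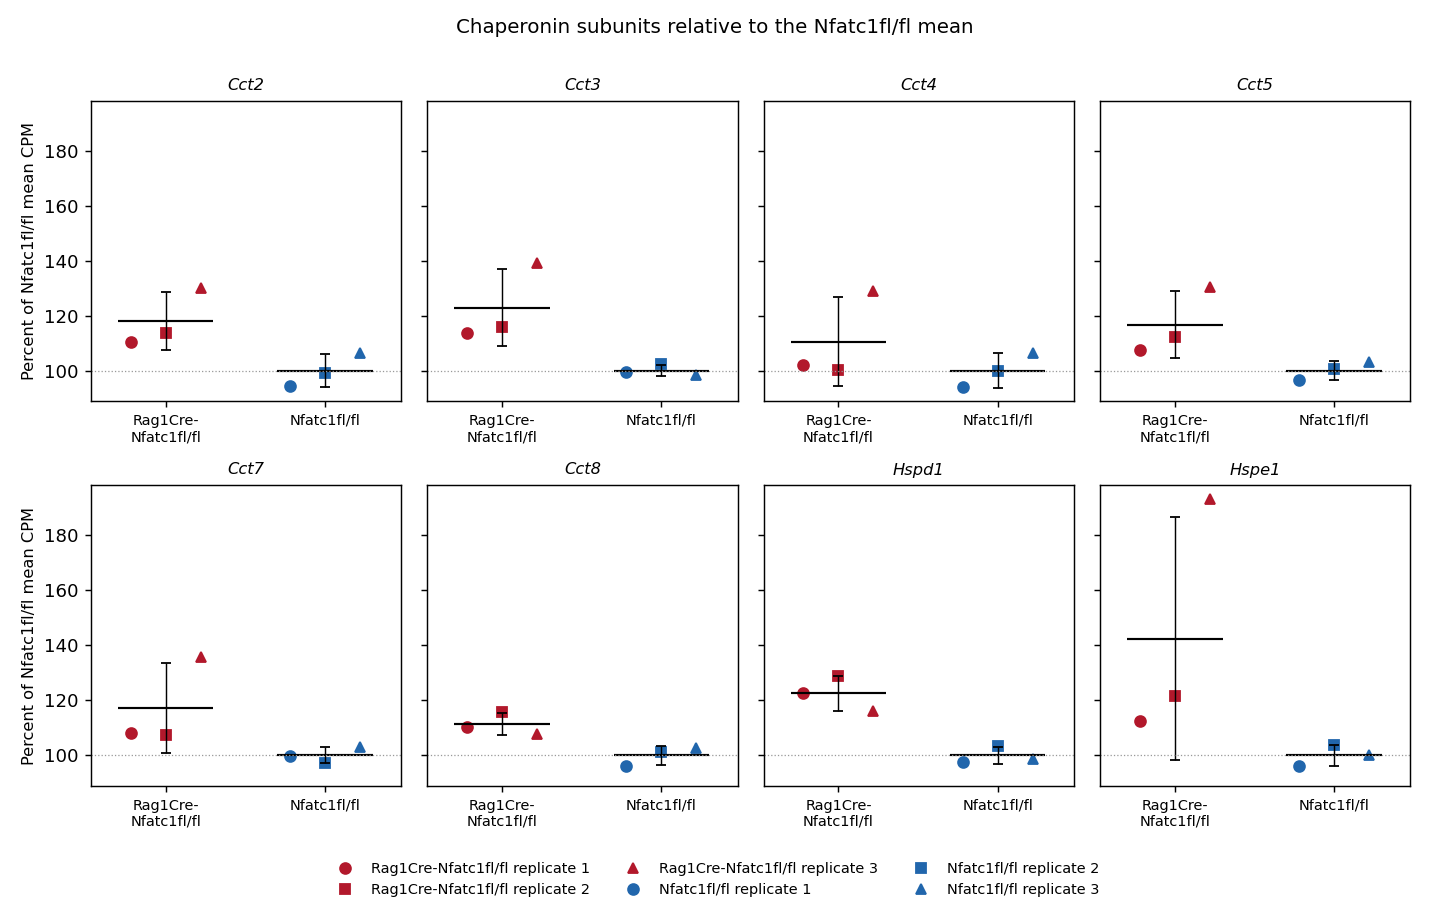
Level of 6 CCT subunits, Hspd1 and Hspe1 in each library as a percent of the Nfatc1fl/fl mean (shared y axis, not starting at 0; dotted line at 100), with Rag1Cre-Nfatc1fl/fl at the left and Nfatc1fl/fl at the right; lines and bars are the mean and SD of 3 libraries. Rag1Cre-Nfatc1fl/fl replicate 3 (red triangle) is at 193% for Hspe1 and at 129% to 139% for Cct2, Cct3, Cct4, Cct5 and Cct7, but lowest of its genotype for Cct8 and Hspd1.

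Among the remaining J-domain proteins no gene but Dnaja4 and Dnajc6 was called. Dnaja2, a general HSP70 partner, had 183, 189 and 188 CPM in Rag1Cre-Nfatc1fl/fl libraries, against 166, 172 and 160 CPM in controls. Dnajb6, which keeps proteins from aggregating, had 142, 143 and 152 CPM in Rag1Cre-Nfatc1fl/fl libraries, against 141, 140 and 141 CPM in controls. Neither overlapped, though the Dnajb6 groups were nearly touching, and neither was called (edgeR adjusted p = 0.142 and 0.703).

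Dnajc5, the cysteine string protein of secretory vesicles, had 156, 152 and 128 CPM in Rag1Cre-Nfatc1fl/fl libraries, against 155, 171 and 163 CPM in controls. Dnajc9, a histone chaperone, had 136, 126 and 125 CPM in Rag1Cre-Nfatc1fl/fl libraries, against 164, 159 and 156 CPM in controls. The Dnajc5 groups overlapped, while all 3 Rag1Cre-Nfatc1fl/fl libraries of Dnajc9 were below the controls, a difference of -0.31 on the log2 scale (SE 0.0793, edgeR adjusted p = 0.0275) that was under the fold limit. Of the 17 tested genes of the C class outside the stress and mitochondrial sets 1 was called lower and 0 higher, and Rag1Cre-Nfatc1fl/fl replicate 3 was the lowest of the 6 libraries in 11 of the 17, where this held for 31.1% of all tested genes. Of the 9 tested genes of the A and B classes outside the stress and mitochondrial sets 1 was called higher and 0 lower.

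Of the BAG cochaperones and heat shock factors outside the heat-inducible set, 8 were tested and 1, Hsf4, was called. Bag6, which captures mislocalised membrane proteins, had 291, 299 and 257 CPM in Rag1Cre-Nfatc1fl/fl libraries, against 286, 284 and 293 CPM in controls. Bag1, an exchange factor of HSP70, had 121, 121 and 131 CPM in Rag1Cre-Nfatc1fl/fl libraries, against 107, 115 and 102 CPM in controls. The Bag6 groups overlapped, and the Bag1 groups did not, with a difference of 0.20 on the log2 scale (SE 0.0853, edgeR adjusted p = 0.121).

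Small heat shock proteins were measured at low levels. Of the 5 outside the heat-inducible set only Hspb6 was tested, with 3.49, 2.87 and 2.90 CPM in Rag1Cre-Nfatc1fl/fl libraries, against 2.84, 3.39 and 4.10 CPM in controls. Its groups overlapped. Hspb11, which despite its name is a part of the transport machinery of cilia, had 8.31, 7.70 and 11.1 CPM in Rag1Cre-Nfatc1fl/fl libraries, against 10.9, 9.85 and 10.9 CPM in controls. Hspbap1, named for its binding to a small heat shock protein, had 8.54, 8.33 and 11.5 CPM in Rag1Cre-Nfatc1fl/fl libraries, against 7.79, 8.18 and 7.12 CPM in controls. The Hspb11 groups overlapped and the Hspbap1 groups did not, and neither gene was called (edgeR adjusted p = 0.342 and 0.229).

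Other HSF1 targets and partners of HSP70 and HSP90 gave 0 calls by edgeR among 20 tested genes. At an unadjusted p under 0.05, 2 were higher and 1 lower, where 20.1% and 17.5% of all tested genes were. DESeq2 called 1 higher and 1 lower, and limma-voom 0. Ubb, a ubiquitin gene with the highest CPM of the list, had 2868, 2898 and 3335 CPM in Rag1Cre-Nfatc1fl/fl libraries, against 2959, 2909 and 2947 CPM in controls. Its groups overlapped.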

How the data were processed

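Poly(A) RNA of γδ thymocytes was sequenced in 3 Rag1Cre-Nfatc1fl/fl and 3 Nfatc1fl/fl libraries, grouped by their labels. According to its methods, single-end reads were trimmed with cutadapt, mapped to GRCm38 with STAR and counted with featureCounts. The tables do not have the featureCounts layout, and which program made them is not stated. The deposited tables hold whole-number read counts per gene (total, unique, exon, intron and junction reads), and total gene reads were tested. The library kit does not mark strand. Deposited columns of TPM and RPKM were not used; TPM was recomputed from exon reads and lengths.

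The main fit used edgeR 4.0.16 under R 4.3.3 (filterByExpr, TMM, quasi-likelihood F test, a single genotype term, Benjamini-Hochberg adjustment over 13185 genes), and calls needed an adjusted p below 0.01 with a log2 fold change beyond 0.5 either way. An exact permutation test of 3 against 3 libraries cannot go below p = 0.1, so none was used. Alternatives were other scalings, no filter, DESeq2 1.42.0, limma-voom and TPM fits (limma 3.58.1), unique or exon reads, a replicate block and leaving out each library.

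Values in every library are given for each called member, each tested member of both stress sets and the 2 members with the highest mean CPM of each other group; 8 further members were named after their values were seen. The members and lists were chosen with earlier results of these data known. Other lists were HSF1 targets and chaperone partners, prefoldin, the unfolded protein response, immediate early genes and cell type markers. Some genes of these lists are not reported here.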

Additional observations from a re-analysis of the deposited data

How the results depend on the processing

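Hsf4 kept its call under all alternatives. The count of members called higher, 2, was 1 with library size only and with TPM at a pseudocount of 1 or 0.1, 5 at an adjusted p under 0.05 with no fold limit, and 1 to 4 when 1 library was left out. The count called lower, 1, was 0 with TPM at either pseudocount and 4 at an adjusted p under 0.05. In the heat-inducible set the count higher, 0, was 1 with the replicate block and 0 to 2 when 1 library was left out, and the count lower, 0, was 1 at an adjusted p under 0.05. Folds with library size only and with TPM were read relative to the median of all genes there (-0.11, -0.12 and -0.15). The adjusted p and the counts of calls under these settings come from the fits before that shift. Over all genes, the 1316 calls of edgeR were 2014 with DESeq2, 524 and 498 with TPM, and 488 to 1796 when 1 library was left out, fewest without an Nfatc1fl/fl library. CCT calls stayed at 0, with group medians of 0.15 to 0.28.

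When 1 library was left out, uncalled log2 fold changes near 0 crossed it: Bag6 ran over -0.073 to 0.045, Dnajb9 over -0.068 to 0.18, Dnajc3 over -0.016 to 0.23, Hsp90aa1 over -0.15 to 0.11, Hsp90b1 over -0.062 to 0.31 and Hsph1 over -0.0036 to 0.28. Of 811 values of named genes under the alternatives 750 kept direction and side of the threshold, 10 changed direction, 45 lost and 6 gained a call. With the replicate block, Hspa1b was called (2.98, adjusted p = 0.000123), as was the Hspa1 sum (3.01, adjusted p = 0.000845), and Dnaja4 (1.19, adjusted p = 0.0173), Eif2ak3 (-0.64, 0.0138) and Cd79b (-0.72, 0.0131) were not. Same-numbered libraries deviated together weakly (correlations 0.026, 0.18 and 0.0055), and 2 of 3 Rag1Cre-Nfatc1fl/fl libraries correlated best with the control of their number, so the numbers were not taken as pairs.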
